A study of Homo sapiens with 2 samples.

Results

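The genes of the ubiquitin-specific proteases (USPs), the largest family of deubiquitinases, were examined for peaks of HNRNPC, an hnRNP that coats newly made RNA in the nucleus and binds runs of U. Members were the protein-coding genes on chromosomes 1 to 22 and X whose symbol is USP, a number and at most 1 letter, without the USP17L copies. This gave 50 genes of 19974 in all. The members with a peak were chosen by the summit positions of the same list that is described here: 25 of the 50 had at least 1 peak with its summit inside the gene span. Those 25 genes held 269 of the 23086 peaks on these chromosomes, 1.17% of them. The peaks came from RNA immunoprecipitation sequencing (RIP-seq) of A549, a cell line from a human lung adenocarcinoma, for which the labels give no treatment or genetic change. Lysates were precipitated with 5 µg of anti-HNRNPC antibody for 1 immunoprecipitated (IP) library, and 1 input library had no antibody. Peaks of the IP library are the basis of each value here, and the input library has none of its own in use. A single IP library has no replicate, so nothing was tested between samples, and the read totals are unknown. Fold and q are the authors' caller's values for each peak, and every interval covers counting error alone.

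Ubiquitin is a small protein that is joined to other proteins to mark them for the proteasome, for sorting, or for a change of function, and deubiquitinases take it off again. USPs are cysteine proteases, most of which share a catalytic domain held in very different surroundings, so that members act on histones, DNA repair factors, endosomes, mitochondria or free ubiquitin chains. Several are studied in tumour cells because they keep regulators such as MYC or MDM2 from being degraded.

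A peak was counted for each gene whose span held its summit. Of the 50 USP genes 50% had a peak (95% exact binomial interval 35.5 to 64.5%), against 18.4% of all protein-coding genes, or 3680. This share is a description and not a test, since the genes were chosen with the peaks known. USP genes are long, with a median span of 70.1 kb against 24.2 kb for all protein-coding genes, and peaks are commoner in long genes. Of the 13 USP genes of 100 kb or more, 11 had a peak, against 36% of all protein-coding genes of that length. Of the 26 from 30 to under 100 kb, 13 had a peak, against 30.6%, and of the 11 under 30 kb USP1 alone did, against 7.18%. Peaks per gene were also many, with a median of 7 in the USP genes that had any and 4 in all genes that had any. A count of 10 or more peaks was held by 11 of the 50 USP genes, 22%, against 3.92% of all protein-coding genes. Among genes with a peak the shares were 44% and 21.25%, not matched for span. Across the 50 USP genes the number of peaks went with span (Pearson r 0.67, Spearman rho 0.59), whereas within the 25 with a peak rho was 0.32 for number of peaks and span and 0.06 for best fold and span. For number of peaks and best fold it was 0.88. A best fold is the highest over all peaks of a gene, so it is not independent of their number. Genes of 1 library share its depth, and expression was not measured, so the part of RNA abundance in these counts was not tested.

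**Figure D1:**
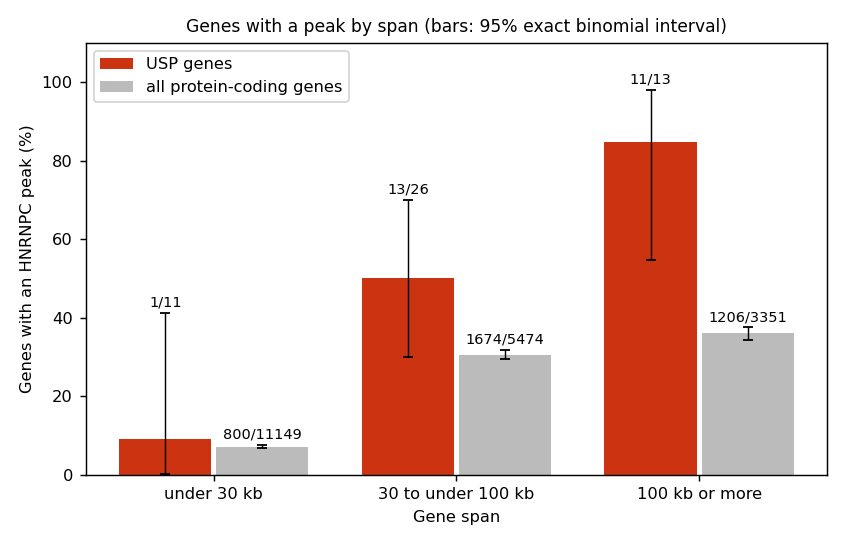
Share of genes with at least 1 HNRNPC peak (vertical axis, percent) in 3 bands of gene span, for USP genes (red, left) and all protein-coding genes (grey, right); error bars are 95% exact binomial intervals and the numbers above are genes with a peak over genes in the band. In the longest band 11 of 13 USP genes had a peak, against 1206 of 3351 protein-coding genes.

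The related large enzymes USP34, USP9X and USP24 carried the most peaks of the family. USP34 (NCBI gene 9736), an enzyme linked to Wnt signalling through axin, lies at chromosome 2, 61187463 to 61471087, and had 45 peaks over 283.6 kb. Only 12 of the 3680 genes with a peak, USP34 included, had as many. Fold enrichment of its peaks, the caller's ratio of IP reads to background at the summit, ranged from 4.30 to 12.6 with a median of 7.22. The strongest, 620 bp wide at 61347849 to 61348468, had its summit 122910 bp from the 5′ end of the gene.

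USP9X (NCBI gene 8239), which has many substrates including the apoptosis regulator MCL1, lies at chromosome X, 41085445 to 41236579, and had 36 peaks. Its folds ran from 3.31 to 19.6 with a median of 10.1, and its highest was the highest of the family. That peak, 693 bp wide at 41085452 to 41086144, had its summit 281 bp from the end of lower coordinate and a −log10 q of 33.3, and it ranked 33 by fold among the 23086 peaks. The next summit followed after 37.8 kb without a peak. From there to the last peak with a fold of 10 or more, 111.2 kb from that end, USP9X had 26 peaks, 17 of them with a fold of 10 or more. The 9 peaks beyond had folds from 3.31 to 9.07. USP9X thus gave 18 of the family's 30 peaks with a fold of 10 or more. Without it 5.15% of the USP peaks reached that fold, against 11.2% with it and 8.89% of all peaks in protein-coding genes. A close copy of USP9X lies on chromosome Y, which was not analysed here, so reads of the 2 copies could be divided between them and the values are uncertain.

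USP24 (NCBI gene 23358), at chromosome 1, 55066359 to 55215364, is about as long as USP9X and had 22 peaks, but its folds stayed between 4.30 and 8.19 with a median of 5.76. None of the 22 peaks of USP24 reached a fold of 10. The 3 large genes together held 103 peaks, 38.3% of those in the family.

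**Figure D2:**
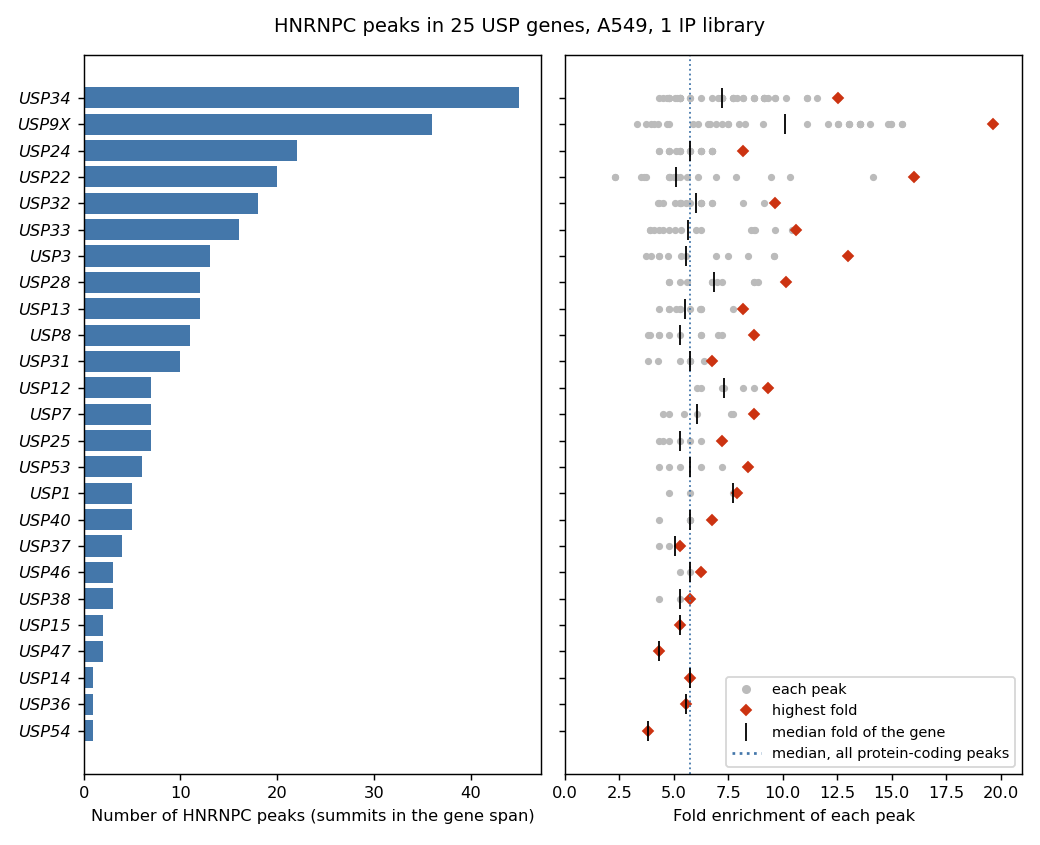
Number of HNRNPC peaks (left panel, horizontal axis) and fold enrichment of each peak (right panel, grey points, with the gene's highest fold as a red diamond and its median as a black bar) in the 25 USP genes with a peak, ordered by number of peaks. The blue dotted line is the median over all peaks in protein-coding genes, 5.76; USP34 had the most peaks, 45, and USP9X the highest fold, 19.6.

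Of 11 USPs known to act on histones or chromatin, 4 had peaks, against 18.4% of all protein-coding genes and 50% of the USP genes. Among these 4, USP22 and USP3 had the highest single peaks. USP22 (NCBI gene 23326), the deubiquitinase of the SAGA coactivator complex that acts on histones H2A and H2B, lies at chromosome 17, 20999596 to 21043419. It had 20 peaks over 43.8 kb, or 45.6 per 100 kb, the densest cover of any USP gene, and 105 of the 3680 genes with a peak were as densely covered. Its strongest peaks, at 21021073 to 21021260 and 21012804 to 21012963, had folds of 16.03 and 14.2, whereas its 2 weakest had 2.29 and 2.32 and its median was 5.09, below the 5.76 of all peaks in protein-coding genes. The weaker pair lay next to each other within 2405 bp of the 3′ end, and the one at 21001873 to 21003005 was 1133 bp wide, the widest in the family. USP3 (NCBI gene 9960), which removes ubiquitin from H2A and H2B, had 13 peaks with folds from 3.72 to 13.01 and a median of 5.54. Its strongest peak was at its 5′ end, at chromosome 15, 63504620 to 63504848. USP7, the deubiquitinase of MDM2 and p53, had 7 peaks with folds up to 8.67, and USP36, a nucleolar USP, had 1 of 5.57. The other 7 of the list, namely USP16, USP21, USP27X, USP42, USP44, USP49 and USP51, had no peak.

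Read numbers behind the folds differed between these genes. MACS2 writes a fold of IP reads plus 1 over the background plus 1, and a Poisson p-value for the same reads, so both unknowns can be inferred. With 1 IP read counted as 0.5355 control reads, all 23148 rows of the list were met within 0.01 of their −log10 p. USP22 summits fell into 2 sets by inferred IP reads. At 14 of its 20 summits there were 42 to 63 IP reads, and at the other 6 there were 8 to 13, with none between. Of the 14, 11 had 50 or more, a level reached by 0 of the peaks in other USP genes and by 1.21% of all peaks in protein-coding genes. The control level at those 14 ran from 1 to 14 reads, and their fold from 16.03 at a level of 1 to 2.29 at a level of 13. USP22 folds at these summits therefore differed mostly in the control, while IP reads stayed within 42 to 63.

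USP9X showed a like pattern in a smaller range, under the same limit of peak calling. At its 16 summits with no more than the genome-wide background in the control it had a median of 26 IP reads and a median fold of 13.5. At the 18 summits with 1 or more control reads the median was 27 IP reads and the fold 6.35. USP34 had 35 of its 45 summits at that lowest control level, with a median of 14 IP reads and a fold of 7.70. USP24 had 21 of 22 there, with a median of 10 IP reads. Over the family 62.5% of the summits were at the lowest control level and 23.8% had 1 or more control reads, against 47.7% and 31.1% of all peaks in protein-coding genes. A fold at the lowest control level rises with IP reads alone, so folds of genes with different control cover do not follow their IP reads.

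**Figure D3:**
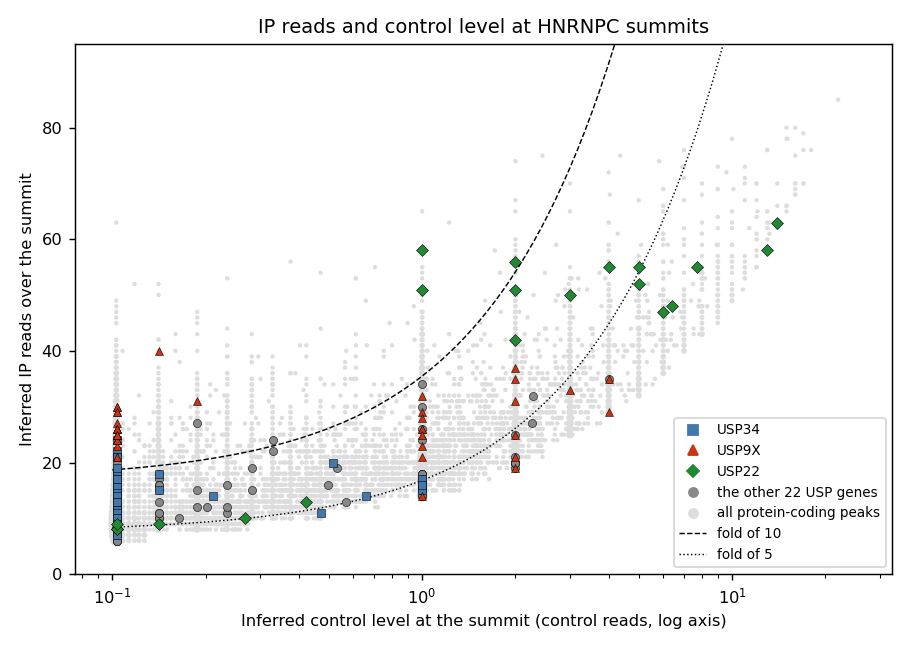
Inferred IP reads over each summit (vertical axis) against the inferred control level there (horizontal axis, control reads, log axis) for peaks of USP34 (blue squares), USP9X (red triangles), USP22 (green diamonds), the other 22 USP genes with a peak (dark grey) and all peaks in protein-coding genes (light grey, larger where more peaks coincide). Dashed and dotted lines mark folds of 10 and 5; 14 USP22 summits lie at 42 to 63 IP reads over control levels from 1 to 14.

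Among 10 USPs listed for endosomes, receptors and signalling, 6 had peaks, USP34 being one, against 18.4% of all protein-coding genes and 50% of the USP genes. USP33, a partner of the VHL protein that also acts on Robo receptors, had 16 peaks with folds from 3.90 to 10.6 and a median of 5.67, the strongest at chromosome 1, 77739235 to 77739415. At a q of 0.001 or less USP33 had 10 peaks. Its paralog USP20 had none, and the nearest summit lay 6678 bp beyond its span in FNBP1. USP8, which deubiquitinates receptors such as EGFR on endosomes, had 11 peaks with folds from 3.82 to 8.67 and a median of 5.27, the strongest at its 5′ end at chromosome 15, 50424411 to 50424523. At a q of 0.001 or less USP8 had 7 peaks. USP12 had 7 peaks with folds from 6.04 to 9.32, so that each of its peaks lay above the median of all protein-coding peaks, 5.76. USP46 had 3 peaks up to 6.24, and USP15, which acts on the TGF-beta receptor, had 2 of 5.27 each. USP2, USP4 and USP19 were the other 3 without a peak.

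In the DNA repair list 3 of 5 had peaks, beside the same 18.4% of all protein-coding genes and 50% of the USP genes. USP28, which stabilises MYC and takes part in the 53BP1 pathway, had 12 peaks in 77.7 kb with folds from 4.78 to 10.1, the strongest at chromosome 11, 113817658 to 113817833. USP1, which removes ubiquitin from FANCD2 and PCNA, had 5 peaks in a span of 15.4 kb, 32.4 per 100 kb, with folds from 4.79 to 7.92. USP1, USP12 and USP46 share the activating partner WDR48, and each of the 3 had peaks. USP47, linked to base excision repair, had 2 peaks of 4.30 and 7 IP reads each. USP45 and USP48 had no peak.

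Of the 3 USPs of the proteasome and free chains 2 had peaks, beside 18.4% of all protein-coding genes and 50% of the USP genes. USP13 had 12 peaks over 136.4 kb with folds up to 8.19. Its paralog USP5, which takes apart free ubiquitin chains and spans 14.5 kb, had none. USP14, a subunit that docks on the proteasome, had 1 peak of 5.76 at chromosome 18, 166754 to 166800, where the summit also lay in the lncRNA gene LOC112268408. Of 4 other members listed together, USP53 had 6 peaks up to 8.39 and USP54 had 1 of 3.82. USP39, a splicing factor, and USP50 had none.

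The remaining USPs with a peak were USP32 with 18 peaks up to 9.64 and a median of 6.002, USP31 with 10 up to 6.73, USP25 with 7 up to 7.22, USP40 with 5 up to 6.73, USP37 with 4 up to 5.27 and USP38 with 3 up to 5.76. USP32 has pseudogene copies on chromosome 17, 1 of which had a peak of its own, so its count is uncertain. The other 16 of the 17 USP pseudogenes in the annotation had none. USP6, USP10, USP11, USP18, USP26, USP29, USP30, USP35 and USP43 had no peak. They include USP30 of the mitochondrial outer membrane, the ISG15 protease USP18 and USP26, known from testis.

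Of 18 groups of 2 or 3 paralogs, 5 had peaks in each member, 2 in no member and 11 in some. Since 50% of all USP genes had a peak, groups of unrelated USP genes would often be mixed too. Whether paralogs differ more or less than that was not tested. USP9X, USP24 and USP34 formed one of the 5 groups, as did USP7, USP40 and USP47, whose best folds were 8.67, 6.73 and 4.30, and USP25 and USP28 with 7.22 and 10.1. USP22 had 20 peaks, but USP27X and USP51, whose spans are 3.08 and 5.23 kb, had none. USP32 had 18 and USP6 none, and USP3 had 13 while USP44 and USP49 had none. Levels of their RNA were not measured.

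Positions along the gene were read for 39 USP genes whose strand was taken from the RefSeq promoter table; USP9X, USP18, USP24, USP26, USP31, USP37, USP42, USP43, USP44, USP48 and USP51 have no entry. Of the 21 such genes with a peak, 12 had a summit within 1 kb of the 5′ end of the span and 4 had one within 2 kb of the 3′ end. Among genes of 20 kb or more, 11 of 20 USP genes had such a 5′ summit, 55.0%, against 49.9% of 2702 protein-coding genes. The 5′ summits had folds from 4.30 in USP38 to 13.01 in USP3. Over 192 peaks in such USP genes, 44.8% lay in the middle of 3 equal parts of the span, 19.8% in the 5′ part and 35.4% in the 3′ part, against 30.8%, 27.3% and 41.9% of 18166 peaks in all such genes. Without USP34 the middle part held 43.5% of 147 peaks.

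Within 5 kb of either end lay 10.6% of the USP summits in genes of 20 kb or more (28 of 264, exact interval 7.16 to 15.0%), against 20.1% of 21611 summits in all such genes. Longer spans leave a smaller share near the ends. Among genes of 100 kb or more the shares were 6.41% of 156 USP summits and 12.2% of 10619, and among genes from 30 to under 100 kb they were 16.7% of 108 and 25.2% of 9779. These shares are descriptions, since peaks of a gene share its RNA and the 5 USP genes with most peaks hold 52.4% of those in the family. The exact interval treats peaks as independent, so it may be too narrow and is no test against the share of all genes.

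**Figure D4:**
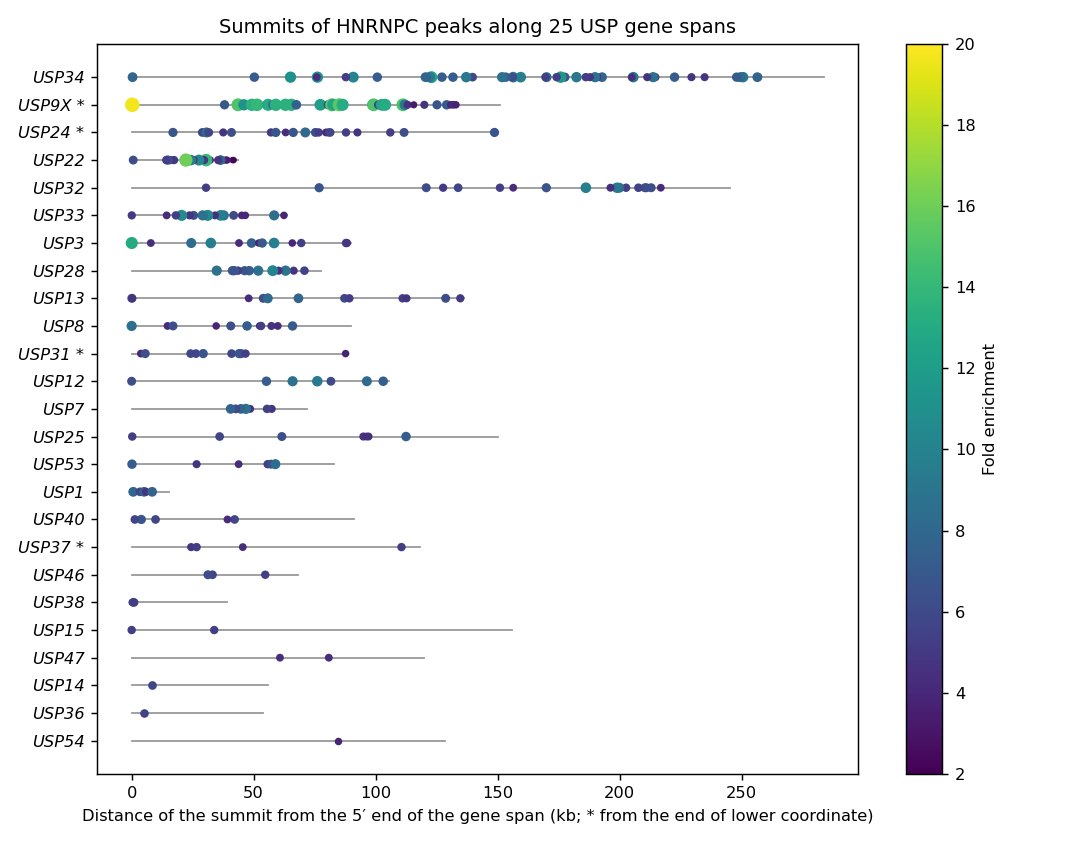
Summits of the 269 HNRNPC peaks along the spans of the 25 USP genes with a peak (horizontal axis, kb from the 5′ end, or from the end of lower coordinate for the 4 genes marked with an asterisk). Point colour and size show fold enrichment, and grey lines show the span; USP9X has its strongest peak, 19.6, at one end, and USP22 its strongest, 16.03, in the middle.

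Peaks at gene starts could be set beside sequence. The promoter windows of RefSeq (GRCh38.p14) run from 250 bases before to 50 after a start site. A peak overlapped such a window in 8 of 39 USP genes, against 8.89% of all protein-coding genes with a window. Among genes with a window and any peak it was 8 of 21 USP genes, against 44.3% of 3071 protein-coding genes. The 8 were USP1, USP3, USP8, USP12, USP15, USP22, USP33 and USP53. The stretches from 50 bases before to 50 after the start site are shown for 4 of them. USP8 had a fold of 8.67, below that of USP3 alone, 13.01, whose stretch is not shown. USP22 was chosen for the most IP reads and USP12 for the highest GC share over the 100 bases, 88%. USP15 was chosen for a microRNA gene under the peak. Capitals mark the bases covered by the peak, 5′ to 3′ on the strand of the gene.
USP8, chr15:50424355-50424454, plus strand: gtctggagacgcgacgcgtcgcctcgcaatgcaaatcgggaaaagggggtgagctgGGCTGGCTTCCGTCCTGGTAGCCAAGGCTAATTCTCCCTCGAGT
USP12, chr13:27171762-27171861, minus strand: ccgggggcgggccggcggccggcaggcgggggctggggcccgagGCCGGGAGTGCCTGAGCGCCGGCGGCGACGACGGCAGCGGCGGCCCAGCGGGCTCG
USP22, chr17:21042962-21043061, minus strand: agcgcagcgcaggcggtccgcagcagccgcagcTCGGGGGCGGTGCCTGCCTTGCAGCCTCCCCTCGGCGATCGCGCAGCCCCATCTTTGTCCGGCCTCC
USP15, chr12:62260354-62260453, plus strand: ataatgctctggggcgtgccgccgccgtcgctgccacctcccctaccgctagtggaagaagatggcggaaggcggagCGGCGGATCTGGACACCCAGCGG

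The covered bases of these 4 stretches were 59.1% G or C in USP8, 83.9% in USP12, 73.1% in USP22 and 73.9% in USP15. Over the 8 genes the share ran from that of USP8 to 87.0% in USP3. HNRNPC is known for U runs, so TTTTT was searched in the 300-base windows on the sense strand, and AAAAA for the other strand. TTTTT was in 0 and AAAAA in 1 (USP33) of the 8 USP windows under a peak. The shares were 16.4% and 15.1% of 1565 protein-coding windows under a peak, and 20.7% and 20.4% of all 22156. Most of each window lies before the start site, and the peaks covered only 23 to 72 of its 300 bases. These counts therefore cannot tell whether U runs lay in the bound RNA, and 8 windows are too few to compare shares. The covered stretch ran on past the window in each gene, and the bases beyond it were not read. Summits lay 69 bases after the start site in USP3, 33 in USP8, 18 in USP12, 39 in USP15 and 266 in USP22, and their folds were 13.01, 8.67, 6.24, 5.27 and 6.09.

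The USP15 peak also lay over MIR6125, a microRNA gene annotated at chromosome 12, 62260359 to 62260454, across the start of the USP15 span at 62260404. The peak, 47 bp wide at 62260431 to 62260477 with 9 IP reads, covered the last 7 bases of the mature microRNA, shown because its product and the host transcript share these bases, with the seed (bases 2 to 8) in capitals.
hsa-miR-6125, chr12:62260418-62260437, plus strand: gCGGAAGGcggagcggcgga
The list gives no strand, and a fragment of the host RNA and one of the microRNA precursor cannot be told apart. The other microRNA gene annotated in a USP span, MIR6855 in USP20, had no peak over it.

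Few USP summits were shared with another annotated gene. None of the 269 lay in a second protein-coding gene, and 4 lay in another annotated gene. Besides the USP14 and USP15 summits named above, 2 summits near the 3′ end of USP3 also lay in the antisense gene USP3-AS1 at chromosome 15, 63587710 to 63600827. These 2 peaks were 689 and 372 bp wide with folds of 5.54 and 4.73, and reads of the 2 genes cannot be told apart without strand. USP8 and USP50 overlap, but no USP8 summit lay in the shared stretch.

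At the edge of the list, the weakest members were USP54 with 1 peak of 6 IP reads, USP47 with 7, and USP15 and USP37 with at most 9. The lowest IP read number at any summit of the list was 6. Among the 25 genes without a peak, none was touched by a part of one, and USP50 alone had a summit within 5 kb of its span, 2646 bp away in USP8. The next were USP20 at 6678 bp, USP42 at 9022 bp, with a summit in CYTH3, and USP30 at 9611 bp, with a summit in UNG.

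The other deubiquitinase families and USP-class enzymes with another name had peaks in 18 of 45 listed genes, 40.0%, against 18.4% of all protein-coding genes. The listed genes were not matched for span. All protein-coding genes from 30 to under 100 kb had a peak in 30.6%, and those of 100 kb or more in 36%. The OTU family had 9 of 16, led by VCPIP1 (9.79), OTUD4 (9.16 over 16 peaks), OTUD6B (8.95) and OTULIN (8.88 over 12 peaks), the last of which cuts linear ubiquitin chains. UCHL5, a proteasome deubiquitinase, reached 12.1, the highest of the 45, and was the 1 of 4 UCH genes with a peak. The JAMM list had 2 of 12, of which the core splicing factor PRPF8, whose JAMM-like domain is inactive, reached 11.2. Josephin genes had 2 of 4, the MINDY and ZUP1 list 2 of 6, and the USP-class enzymes with another name 2 of 3.

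Partners and substrates of USPs had peaks in 11 of 16 listed genes, against 18.4% of all protein-coding genes. These genes were not matched for span either, and the shares of 30.6% and 36% for longer genes apply here too. MDM2, the p53 ubiquitin ligase that USP7 stabilises, reached the highest fold of this list, 21.3, over 13 peaks with a median of 11.6. G3BP2 and G3BP1, RNA-binding proteins of stress granules that bind USP10, reached 16.5 and 12.01, although USP10 itself had no peak. The median fold was 8.93 over 8 peaks of G3BP2. It was 3.52 over 9 peaks of G3BP1, below the 5.76 of all peaks in protein-coding genes. FANCD2, a substrate of USP1, had 13 peaks up to 9.41. PAN3 had 12 up to 7.70, and ATXN7, a subunit of the module that holds USP22, had 9 up to 7.22. These genes too were listed with earlier results of the same peaks known, and their RNA levels were not measured.

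As for the cell line itself, 1 of 9 listed epithelial markers had a peak, CDH1 (E-cadherin) with 10 up to a fold of 10.7, and KRT8, KRT18, KRT19, EPCAM, NKX2-1, SFTPB, SFTPC and SCGB1A1 had none. Of 12 listed markers of blood, endothelium and fibroblasts 0 had a peak. Over all protein-coding genes 18.4% had a peak, and 7.18% of those under 30 kb. Lists this short cannot be told apart from such shares. A peak list does not measure expression, so these counts do not check the identity of the cells.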

How the data were processed

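The authors' deposited peaks of the IP library were used. Per the submitters' processing notes, the tools were HISAT2, MACS2 and bedtools and the genome was hg38. Versions and settings are not given in the sources used here. For each peak the deposited file gives a score (10 times the −log10 q, cut to a whole number, in each of the 23148 rows), a fold enrichment ratio over the caller's background, and the −log10 of a p-value and a q-value. Whether the input was the control is not given in the sources used here. No read total is given, so depth is unknown.

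Summits were matched to spans of protein-coding genes in a RefSeq table of GRCh38.p14. IP reads and control level at each summit were solved from fold and p, taking the closest solution. On simulated data this recovered 100% of 2889 summits, and summit counts were recovered in 100% of 200 genes placed among 19974. The simulated reads had another scale and simpler control levels than the list. In the list 91.1% of peaks had 1 solution within 0.01 of their −log10 p. Of the USP peaks 31 had more than 1 within 0.01, and all 269 had 1 within 0.001. No test was made. All USP genes are named; full values go to the highest folds and most peaks, and of other lists to at most 6 genes by best fold. Members, lists and rules were chosen with earlier results of these data known. U runs at summits were planned but need a genome and were not analysed here. Alternatives were a stricter q (at most 0.001), a minimum fold of 4, any overlap, unshared summits, joined peaks, median fold and rank by q. Scripts ran in Python 3.11.15 with scipy 1.17.1, numpy 2.4.6 and pandas 2.3.3, and figures were drawn with matplotlib 3.10.9.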

Additional observations from a re-analysis of the deposited data

How the results depend on the processing

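The number of USP genes with a peak was 25, and 23 with q of 0.001 or less (without USP47 and USP54), 24 with a fold of 4 or more (without USP54), 25 by any overlap and 25 with unshared summits, while the share of all protein-coding genes ran from 16.7 to 18.5%. The 269 USP peaks became 223, 253, 269 and 269 under the same alternatives, and 246 when peaks within 500 bases were joined, where USP38 had 1 in place of 3. USP33 and USP8 had 10 and 7 peaks with q of 0.001 or less, in place of 16 and 11. Leaving out USP9X, USP34 and USP22, an alternative chosen after seeing the data, left 168 peaks in 22 genes, with a median best fold of 7.57 in place of 8.19. The median over each gene's own median fold was 5.76. Of the first 10 genes by fold 9 were among the first 10 by −log10 q. Within 2 kb in place of 5 kb of an end lay 8.33% of USP summits, and 10.3% within 5 kb without peaks of 1000 bp or more. Of the 45 other deubiquitinase and 16 partner genes 29 had a peak, and 25 with q of 0.001 or less. No paired analysis was possible because each group has 1 sample. With as few as 6 IP reads at a summit, a gene without a peak may hold fewer reads than the list could show, and is not shown to lack HNRNPC. The planned counts of U runs were not run, as they need a genome.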
